A study of Homo sapiens with 60 samples.

Results

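A set of 10 amino acid transporter genes of the plasma membrane was followed across every treatment group of an RNA-seq series in HepG2, a hepatocyte-like line derived from a human liver carcinoma. The genes are SLC6A14, SLC7A1, SLC7A2, SLC7A5, SLC3A2, SLC1A4, SLC1A5, SLC38A1, SLC38A2 and SLC43A1. They were given as a list of 10 symbols among the 60675 genes of the count table, and all 10 were found in the table and passed the filter on low counts that left 16517 genes for testing. The list was chosen by earlier values of these same libraries: SLC6A14 and SLC7A2 were selected on their CPM changes between treatments, so their values are described here with no test. The other 8 genes were tested.

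Cells were harvested 24 h after treatment. The 20 groups held 3 libraries each. The vehicle was DMSO, at 0.1% by the sample labels and at 2% by the design text of the series, so its level is uncertain. The sample labels give a DMSO level for the vehicle libraries alone. Whether the treated groups held the same solvent cannot be read from them. Wortmannin, an inhibitor of phosphoinositide 3-kinases, was given at 10 µM as the positive control. The other 18 groups received water extracts of 6 medicinal herbs, each at 3 doses called high, medium and low. For Polygalae Radix these were 450, 90 and 18 µg/mL. For the other 5 extracts (Aucklandiae Radix, Zizyphi Semen, Longan Arillus, Schisandrae Fructus, and Liriopis seu Ophiopogonis Tuber) they were 500, 100 and 20 µg/mL. Sample codes fall into 5 sets whose meaning is not given: the vehicle alone, wortmannin alone, Liriopis with Schisandrae, Longan with Zizyphi, and Polygalae with Aucklandiae. A comparison with the vehicle therefore crosses sets, and set and treatment cannot be told apart there, whereas the doses of an extract, and the paired extracts, share a set.

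Amino acids cross the plasma membrane through carriers that differ in substrate and in driving force. SLC7A1 and SLC7A2 are uniporters of arginine, lysine and ornithine, and SLC7A2 is the form typical of liver. SLC6A14 uses the sodium and chloride gradients to import neutral and cationic amino acids. SLC1A4 and SLC1A5 exchange small neutral amino acids, with glutamine a main substrate of SLC1A5, and SLC38A1 and SLC38A2 import glutamine and other small neutral amino acids with sodium. SLC7A5 exchanges glutamine and other amino acids for leucine and large neutral ones, and it reaches the membrane only as a disulfide-linked heterodimer with SLC3A2, the heavy chain. SLC43A1 carries branched-chain amino acids without sodium. When amino acids run short, translation of the factor ATF4 rises, and ATF4 with C/EBP partners binds composite sites in many genes of amino acid uptake and synthesis.

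To show where such composite sequences lie, RefSeq promoter windows on GRCh38.p14 (250 bases before to 50 after a start) were searched on both strands for the core TGATGNAAN. Windows were at hand for 9 of the 10 genes, 16 in all, and 5 windows of 5 genes held a match. Of all 35116 windows of this length, 3.61% held one. The 5 matches are shown because these genes include 3 that were higher with high-dose Schisandrae (SLC7A1, SLC1A5 and SLC38A1). SLC3A2 and SLC1A4 also held a match but were not called there, and SLC38A2, which was higher there, had 1 window with 0 matches. Each match is given 5′ to 3′ on the gene's strand with the matched bases in capitals.
SLC7A1: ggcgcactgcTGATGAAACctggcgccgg
SLC3A2: taatgtgcaggactcCTTACATCAgctcc
SLC1A4: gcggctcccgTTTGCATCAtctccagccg
SLC1A5: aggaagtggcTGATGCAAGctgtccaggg
SLC38A1: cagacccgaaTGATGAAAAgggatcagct
Distances are those of the first capital from the start. In the SLC7A1 stretch (chr13:29595663-29595691, minus strand) the capitals begin 7 bases after the outermost start, and the stretch overlaps an exon annotated as untranslated. The others belong to inner starts. In the SLC3A2 stretch (chr11:62881720-62881748, plus strand) the capitals begin 36 bases after such a start. In the SLC1A4 stretch (chr2:64989381-64989409, plus strand) they begin 8 bases before one and reach the start itself. Both stretches hold the core on the opposite strand and overlap untranslated exons of GENCODE release 29. For SLC1A5 (chr19:46784893-46784921, minus strand) the capitals begin 97 bases before an inner start, in a stretch that overlaps an untranslated exon. For SLC38A1 (chr12:46266502-46266530, minus strand) they begin 4 bases before one and run past it. That stretch lies within the gene, where GENCODE release 29 has no exon of it. A match is only a description of the letters, and no binding was measured.

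SLC6A14 and SLC1A5 had unlike patterns across treatments, and the 250 bases before their outermost RefSeq starts are shown for that reason. Capitals mark GC boxes (GGGCGG on either strand).
SLC6A14: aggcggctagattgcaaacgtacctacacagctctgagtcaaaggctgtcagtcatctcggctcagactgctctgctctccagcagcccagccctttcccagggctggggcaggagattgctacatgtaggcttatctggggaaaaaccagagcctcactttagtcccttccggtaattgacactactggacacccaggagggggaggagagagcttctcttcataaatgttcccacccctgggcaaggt
SLC1A5: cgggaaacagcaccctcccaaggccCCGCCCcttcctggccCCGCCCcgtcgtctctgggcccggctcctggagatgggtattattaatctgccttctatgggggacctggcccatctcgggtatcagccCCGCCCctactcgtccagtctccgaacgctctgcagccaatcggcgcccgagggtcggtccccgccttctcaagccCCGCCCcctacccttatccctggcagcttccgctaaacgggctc
The SLC6A14 stretch (chrX:116436356-116436605, plus strand) is intergenic, is 54.8% G and C and holds 0 GC boxes, and 0 matches to TGATGNAAN or to the E-box CACGTG. The SLC1A5 stretch (chr19:46788595-46788844, minus strand) is 66.8% G and C, holds 4 GC boxes and overlaps the antisense gene AC008622.2 (ENSG00000275719). Among all windows of 250 bases, 42.6% hold a GC box, 6.34% an E-box and 3.13% the core TGATGNAAN.

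Each library held between 20.21 and 36.41 M counts. All 12 hepatocyte markers were expressed, with a summed level of 39100 to 54900 CPM (counts divided by library size, with sizes scaled by TMM) in the group means. Of 16 markers of other cells, 5 reached a median of 1 CPM (CD68, LYZ, PECAM1, ACTA2 and KRT19), their summed level was 1180 to 1930 CPM, and PTPRC, CD3E and HBB were at 0 in all libraries. Vehicle replicate 1 and 3 other libraries had the lowest GC slope, that is, their GC-rich genes were read at a relatively low level. The mitochondrial share of counts, a sign of RNA or cell state, ran from 7.06% to 16.6%. It was 13% to 16.1% in the vehicle and lower in every library of wortmannin (10.5% to 11.3%) and of high-dose Schisandrae (9.55% to 11.4%), Polygalae (9.31% to 11.2%) and Aucklandiae (9.57% to 9.98%). High-dose Liriopis, with 0 calls among the 8 genes, was also below the vehicle (9.56% to 12.5%). The part of this difference in the comparisons with the vehicle was not tested. The labels do not say whether replicates were separate cultures, so p-values reflect only how far these libraries scatter, and that scatter may be technical. In bulk RNA fewer cells and less RNA per cell cannot be told apart.

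Per kilobase of exon, levels in the vehicle spanned a wide range. SLC7A5 stood highest at 204 CPM per kb, followed by SLC1A5 at 85.2, SLC38A2 at 71.9 and the heavy chain SLC3A2 at 33.3 CPM per kb. SLC7A1 (23.2), SLC43A1 (22.3), SLC38A1 (16.6), SLC1A4 (13.9) and SLC7A2 (12.7 CPM per kb) were lower, and SLC6A14 was lowest at 6.67 CPM per kb. Within a group the SD was small beside the mean, with a median over groups from 2.83% of the mean for SLC43A1 to 6.91% for SLC7A2. SLC1A5 overlaps AC008622.2 (2.31 to 13.6 CPM in group means) on the opposite strand. Whether the counting used strand is not given in the sources used here, so a part of its reads is uncertain. SLC1A5 itself was at 264 to 396 CPM in group means. Overlapping partners of the other members were at or below 0.113 CPM.

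Among the 8 tested genes, SLC1A5, SLC38A1, SLC38A2 and SLC7A1 were higher with high-dose Schisandrae. With high-dose Polygalae SLC43A1, SLC1A5, SLC38A2 and the 2 genes of the heterodimer, SLC7A5 and SLC3A2, were higher. With high-dose Aucklandiae SLC1A5, SLC3A2 and SLC43A1 were higher, and with wortmannin SLC43A1 and SLC38A2 were higher and SLC38A1 was lower. All these changes were under 1.5-fold. At the high doses and with wortmannin, 15 of 56 tests against the vehicle passed (edgeR quasi-likelihood, 2-sided, Benjamini-Hochberg over all genes, threshold 0.05), 14 higher and 1 lower. With Polygalae 5 of 8 genes were called, all higher, where 20.1% of all genes were called in either direction, and with Schisandrae 4 of 8, all higher, where 15.7% were called. With Aucklandiae 3 of 8 were called, all higher, beside 26.1% of all genes, and with wortmannin 3 of 8, of which 2 were higher and 1 lower, beside 32.6%. The wortmannin and Aucklandiae shares (3 of 8 each) thus lay near the background of their comparisons, whereas those of Schisandrae and Polygalae lay above it. The median log2 fold change of the 8 genes was 0.169 with Schisandrae, 0.203 with Polygalae, 0.12 with Aucklandiae and -0.116 with wortmannin, beside medians of all genes within 0.0128 of 0 in every comparison.

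**Figure D1:**
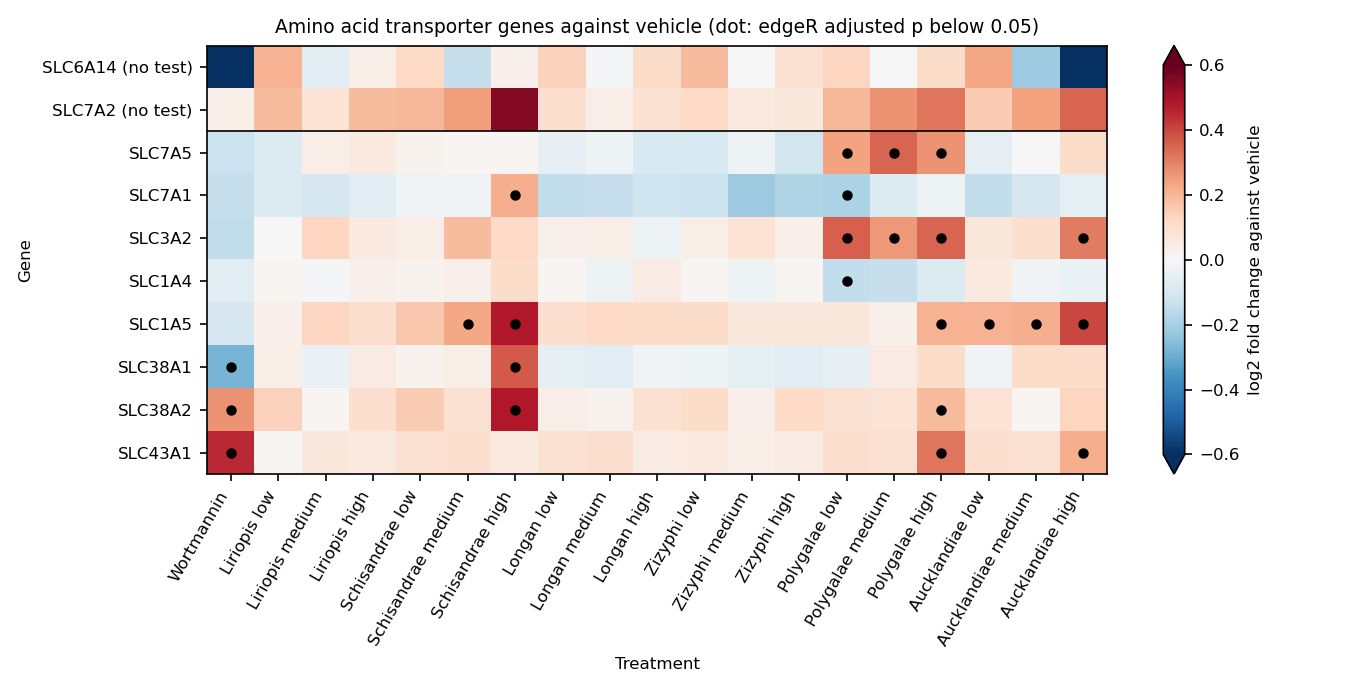
Log2 fold change against the vehicle (colour, scale ends at 0.6 in either direction) for the 10 transporter genes (rows) in the 19 treated groups (columns). Dots mark edgeR adjusted p below 0.05 among the 8 tested genes. SLC6A14 and SLC7A2, above the line, carry no test. The dots gather in the high-dose Schisandrae column and in the Polygalae, Aucklandiae and wortmannin columns.

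SLC6A14 (ENSG00000268104, chromosome X, 116436622 to 116461458, plus strand), the sodium- and chloride-coupled carrier, spanned the widest range of the 10 genes. Its vehicle libraries were at 32, 27.7 and 30.7 CPM, the wortmannin libraries at 11.1, 10 and 12.3 CPM and those of high-dose Aucklandiae at 19.1, 16.3 and 15.9 CPM. All libraries of both treatments lay below every other library of the series, and the 2 groups did not overlap. Against the vehicle (30.1 ± 2.22 CPM, SD, n = 3), the log2 fold change was -1.43 ± 0.07 (SE) with wortmannin (11.1 ± 1.15 CPM) and -0.82 ± 0.07 with high-dose Aucklandiae (17.1 ± 1.73 CPM).

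Within Aucklandiae the SLC6A14 level was lower at each higher dose. Libraries of the medium dose were at 25, 25.3 and 27.3 CPM and those of the low dose at 34.3, 37.1 and 34.9 CPM, so that the 3 doses did not overlap one another. Within this code set the high dose was at a log2 fold change of -1.05 ± 0.07 against the low dose, larger than against the vehicle, since the low dose lay above the vehicle (0.23 ± 0.07). Polygalae, the paired extract, did not show this: its libraries ran from 29.3 to 36 CPM over all doses, and high-dose Polygalae stood 0.93 ± 0.07 above high-dose Aucklandiae on the log2 scale. In the order of group means, wortmannin, high-dose Aucklandiae and medium-dose Aucklandiae (25.9 ± 1.24 CPM) were lowest, and from the medium dose upward every neighbouring pair of groups overlapped. Those other 17 groups ran from 27.3 ± 1.5 CPM (medium-dose Schisandrae) to 35.4 ± 1.47 CPM (low-dose Aucklandiae).

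**Figure D2:**
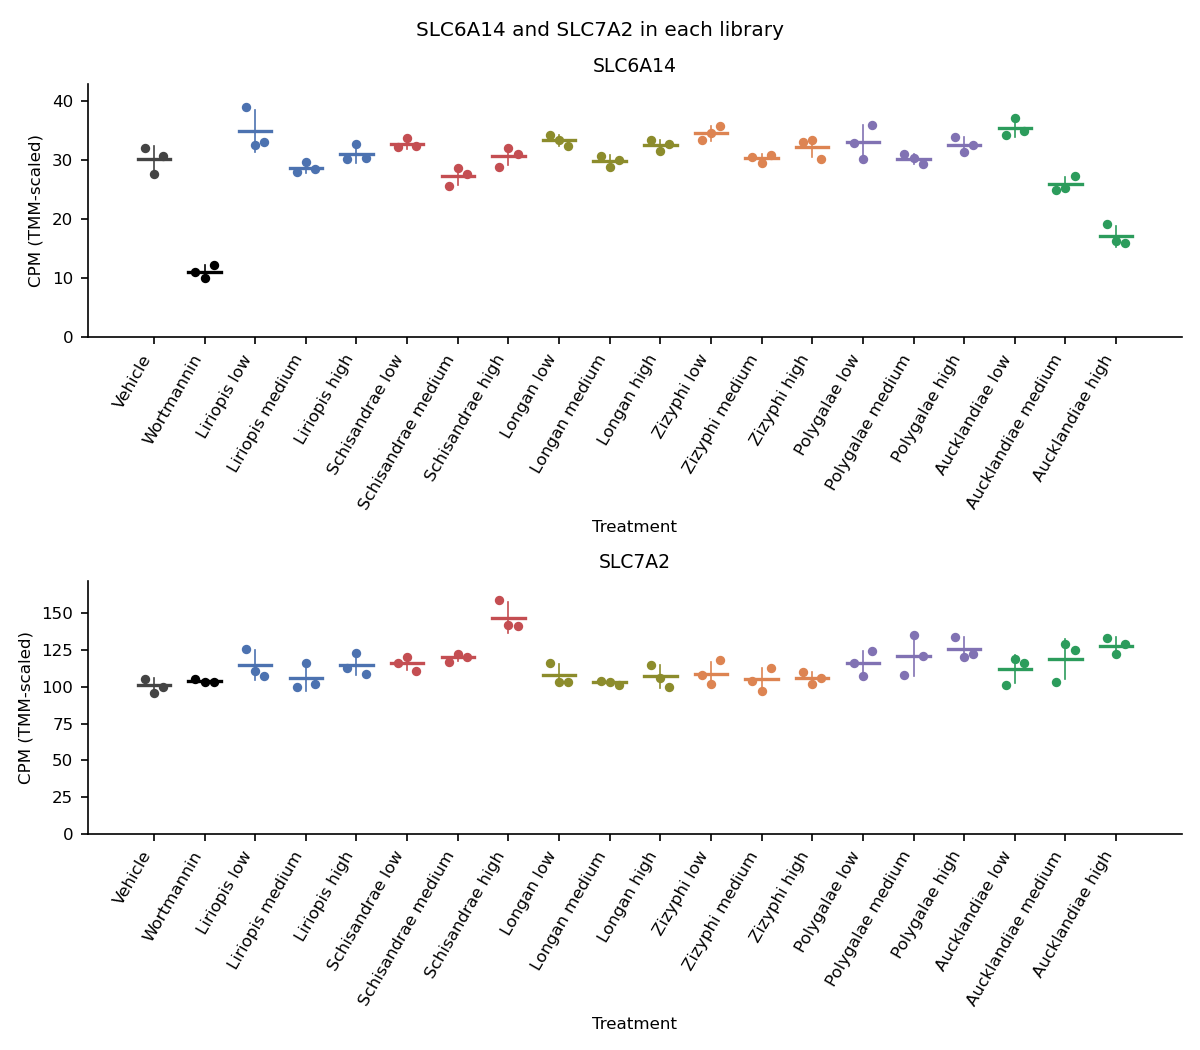
TMM-scaled CPM of SLC6A14 (top) and SLC7A2 (bottom) in each library of the 20 groups; points are libraries, horizontal lines the mean of 3 and vertical lines 1 SD. For SLC6A14 the wortmannin libraries (10 to 12.3 CPM) and high-dose Aucklandiae libraries (15.9 to 19.1 CPM) sit apart below the rest, and for SLC7A2 the high-dose Schisandrae libraries (141 to 159 CPM) sit above the rest.

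SLC7A2 (ENSG00000003989, chromosome 8, 17497088 to 17570573, plus strand), the cationic carrier typical of liver, was lowest in the vehicle, with libraries at 105, 96 and 100 CPM. High-dose Schisandrae libraries were at 159, 142 and 141 CPM, above every other library of the series. Their log2 fold change was 0.55 ± 0.08 against the vehicle, 0.34 ± 0.08 against the low dose of the extract and 0.36 ± 0.08 against high-dose Liriopis, which shares the code set. Aucklandiae and Polygalae at the high dose followed at 128 ± 5.49 and 126 ± 7.71 CPM (log2 fold changes 0.35 and 0.32, each ± 0.08), and their libraries overlapped each other. Wortmannin, under which SLC6A14 was lowest, left SLC7A2 at 104 ± 1.3 CPM, a log2 fold change of 0.04 ± 0.08. Below high-dose Schisandrae, every neighbouring pair of groups in the order of means overlapped.

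SLC7A1 (ENSG00000139514, chromosome 13, 29509410 to 29595688, minus strand), the widely expressed cationic carrier, was highest in the same group. Its libraries were at 219, 204 and 200 CPM with high-dose Schisandrae and at 179, 175 and 182 CPM in the vehicle, with no overlap. SLC7A1 rose by 0.22 ± 0.07 on the log2 scale (edgeR adjusted p = 0.018). That call was lost without vehicle replicate 2 (0.2, adjusted p = 0.071), without high-dose replicate 1 (0.17, 0.13) and without the 4 libraries of lowest GC slope (0.22, 0.06). Against high-dose Liriopis (170 ± 7.39 CPM) the difference was 0.28 ± 0.07 (edgeR adjusted p = 0.0018), which passed in all 15 alternative settings. It was also higher than at the low dose (0.24, edgeR adjusted p = 0.013), but not without high-dose replicate 1 (0.2, 0.1) or low-dose replicate 3 (0.21, 0.075). The vehicle mean of SLC7A1 (179 ± 3.56 CPM) was above that of every group but high-dose Schisandrae. The lowest mean was that of medium-dose Zizyphi (153 ± 15.9 CPM), which was not called (-0.22, edgeR adjusted p = 0.092). With low-dose Polygalae, SLC7A1 was at 162, 143 and 165 CPM, and fell against the vehicle by 0.19 ± 0.07 (edgeR adjusted p = 0.039). That call ended without vehicle replicates 1 or 3 (-0.2 and -0.18, adjusted p = 0.099 and 0.088) or low-dose replicate 2 (-0.13, 0.31), without the 4 libraries of lowest GC slope (-0.2, 0.11) and with the 6 libraries alone (-0.2, 0.067).

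SLC1A5 (ENSG00000105281, chromosome 19, 46774883 to 46788594, minus strand), the main glutamine exchanger of many tumour lines, rose with high-dose Schisandrae and with high-dose Aucklandiae. Its vehicle libraries were at 252, 298 and 302 CPM, those of high-dose Schisandrae at 410, 391 and 387 CPM and those of high-dose Aucklandiae at 364, 374 and 390 CPM. Every library of both treatments lay above every library of the other groups, while these 2 groups overlapped each other. The log2 fold changes against the vehicle were 0.48 ± 0.06 with Schisandrae (edgeR adjusted p = 5e-08) and 0.4 ± 0.06 with Aucklandiae (1.2e-06), and both passed in all 15 settings. Vehicle replicate 1 was the lowest of all 60 libraries for this gene, whose exons are 61.3% G and C, and that library had a low GC slope. Its part in the smaller differences below was measured by leaving it out.

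Within code sets the SLC1A5 differences held for Schisandrae, at 0.38 ± 0.06 against high-dose Liriopis (305 ± 11.1 CPM, edgeR adjusted p = 9.4e-06) and 0.32 ± 0.06 against the low dose (316 ± 17.3 CPM, 0.00013), in all settings. For Aucklandiae the high dose exceeded the low dose by 0.19 ± 0.06 (edgeR adjusted p = 0.024), but not without low-dose replicate 1 (0.13, 0.23) or high-dose replicates 2 or 3 (0.2 and 0.17, adjusted p = 0.056 and 0.12). That call was also lost with the 6 libraries alone (0.19, edgeR adjusted p = 0.088), with a replicate block in them (0.19, 0.11) and with no filter on low counts (0.19, 0.058). High-dose Polygalae, at 325, 324 and 338 CPM, was above the vehicle by 0.21 ± 0.06 (edgeR adjusted p = 0.01), a call lost without vehicle replicate 1 (0.13, 0.18) or the 4 libraries of lowest GC slope (0.13, 0.19). It was below high-dose Aucklandiae, given at a slightly higher dose, by a log2 difference of -0.19 ± 0.06 (edgeR adjusted p = 0.023), with no overlap of libraries. That difference missed the threshold without Polygalae replicates 1 or 2 (-0.18 in each, 0.076 and 0.081) or Aucklandiae replicates 2 or 3 (-0.2 and -0.17, 0.052 and 0.11).

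At the lower doses SLC1A5 passed for medium-dose Schisandrae (333 ± 13.7 CPM, log2 fold change 0.23, edgeR adjusted p = 0.029) and for medium- and low-dose Aucklandiae (331 ± 26.3 and 329 ± 22.7 CPM, 0.22 and 0.21, adjusted p = 0.024 and 0.037). Without vehicle replicate 1 all 3 missed the threshold, at 0.15, 0.16 and 0.14 (edgeR adjusted p = 0.39, 0.19 and 0.35). They also missed it without any 1 of the 3 medium-dose Schisandrae libraries (0.22, 0.25 and 0.19 without replicates 1, 2 and 3), without medium-dose Aucklandiae replicates 2 or 3 (0.17 and 0.21) or without low-dose Aucklandiae replicates 2 or 3 (0.19 and 0.18). All 3 were lost as well without the 4 libraries of lowest GC slope (0.14, 0.14 and 0.13, edgeR adjusted p = 0.39, 0.39 and 0.34) and with the 6 libraries alone (0.22, 0.22 and 0.21, adjusted p = 0.08, 0.24 and 0.3). The replicate block in those 6 ended the Aucklandiae calls (0.22 and 0.21, edgeR adjusted p = 0.093 and 0.11), and the GC slope covariate that of Schisandrae (0.18, 0.058). With wortmannin SLC1A5 was at 264 ± 5.11 CPM, its lowest mean (log2 fold change -0.1, edgeR adjusted p = 0.21), and without vehicle replicate 1 it was lower by the test (-0.19, 0.018). Between Polygalae and Aucklandiae at their medium doses SLC1A5 did not pass, but it did without Aucklandiae replicate 1 (-0.26, edgeR adjusted p = 0.018), without Polygalae replicate 2 (-0.24, 0.036) and by DESeq2 (-0.19, 0.024).

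SLC1A4 (ENSG00000115902, chromosome 2, 64988477 to 65023865, plus strand), which exchanges serine, alanine and other small neutral amino acids, varied least, from 86.9 ± 4.69 CPM (low-dose Polygalae) to 104 ± 5.59 CPM (high-dose Schisandrae), 1.2-fold. It passed in 0 of the 7 comparisons of wortmannin and high doses. At the low dose of Polygalae its libraries were at 85.9, 82.9 and 92.1 CPM and overlapped the vehicle (90.1, 98.1 and 102 CPM). SLC1A4 fell there by 0.15 ± 0.05 on the log2 scale (edgeR adjusted p = 0.045). The call ended without vehicle replicates 2 or 3 (-0.15 and -0.12, adjusted p = 0.098 and 0.17) or low-dose replicates 1 or 2 (-0.15 and -0.12, 0.096 and 0.26). It also ended with no filter on low counts, with the 6 libraries alone and with a replicate block in them (-0.16 in each, edgeR adjusted p = 0.16, 0.14 and 0.11).

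SLC38A2 (ENSG00000134294, chromosome 12, 46358189 to 46372867, minus strand), the sodium-coupled carrier that cells raise when amino acids are scarce, was at 507, 440 and 478 CPM in the vehicle and at 657, 682 and 648 CPM with high-dose Schisandrae. The high-dose Schisandrae libraries were the 3 highest of the series. It rose by 0.48 ± 0.07 on the log2 scale (edgeR adjusted p = 3.1e-07), and was higher than with high-dose Liriopis by 0.38 ± 0.07 (3.1e-05) and than at the low dose by 0.33 ± 0.07 (0.00035). The vehicle mean of SLC38A2, 475 ± 33.5 CPM, was the lowest of the 20 groups. Wortmannin libraries, at 575, 543 and 597 CPM, also lay above the vehicle (0.27 ± 0.07, edgeR adjusted p = 0.0014) but overlapped those of high-dose Polygalae. These 4 calls passed in all 15 settings. With high-dose Polygalae SLC38A2 was at 543 ± 11.7 CPM (0.19 ± 0.07, edgeR adjusted p = 0.032). That call was lost without vehicle replicates 2 or 3 (0.14 and 0.19, adjusted p = 0.23 and 0.078) or Polygalae replicates 2 or 3 (0.19 and 0.18, 0.075 and 0.095).

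SLC38A1 (ENSG00000111371, chromosome 12, 46183063 to 46270017, minus strand), another sodium-coupled glutamine carrier and a neighbour of SLC38A2, moved the same way with Schisandrae and the opposite way with wortmannin. Its libraries were at 179, 164 and 157 CPM in the vehicle, at 231, 209 and 205 CPM with high-dose Schisandrae and at 135, 138 and 137 CPM with wortmannin, and the 3 groups did not overlap. SLC38A1 rose by 0.37 ± 0.06 with Schisandrae (edgeR adjusted p = 9.2e-06) and fell by 0.28 ± 0.06 with wortmannin (0.00024). Against high-dose Liriopis it stood higher by 0.32 ± 0.06 (edgeR adjusted p = 0.00011) and against the low dose of Schisandrae by 0.35 ± 0.06 (3.2e-05). All 4 passed in all 15 settings.

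The 4 genes that rose with Schisandrae at 500 µg/mL thus also passed against the low dose, where 9.99% of all genes were called, and against Liriopis at the same dose, where 10.9% were called. At the medium dose 1 of 8 passed (2.98% of all genes) and at the low dose 0 of 8 (0.0727%), with 2 at an unadjusted p under 0.05 and 0 by DESeq2. At this high dose SLC7A5 (972 ± 45.7 CPM, log2 fold change 0.01 ± 0.07), SLC3A2 (188 ± 8.59 CPM, 0.12 ± 0.08), SLC1A4 (0.11 ± 0.05) and SLC43A1 (82.4 ± 3.14 CPM, 0.06 ± 0.05) did not pass, with edgeR adjusted p = 0.96, 0.31, 0.16 and 0.42. The intervals of these 4 reached no higher than 0.27 on the log2 scale (95%, SLC3A2).

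**Figure D3:**
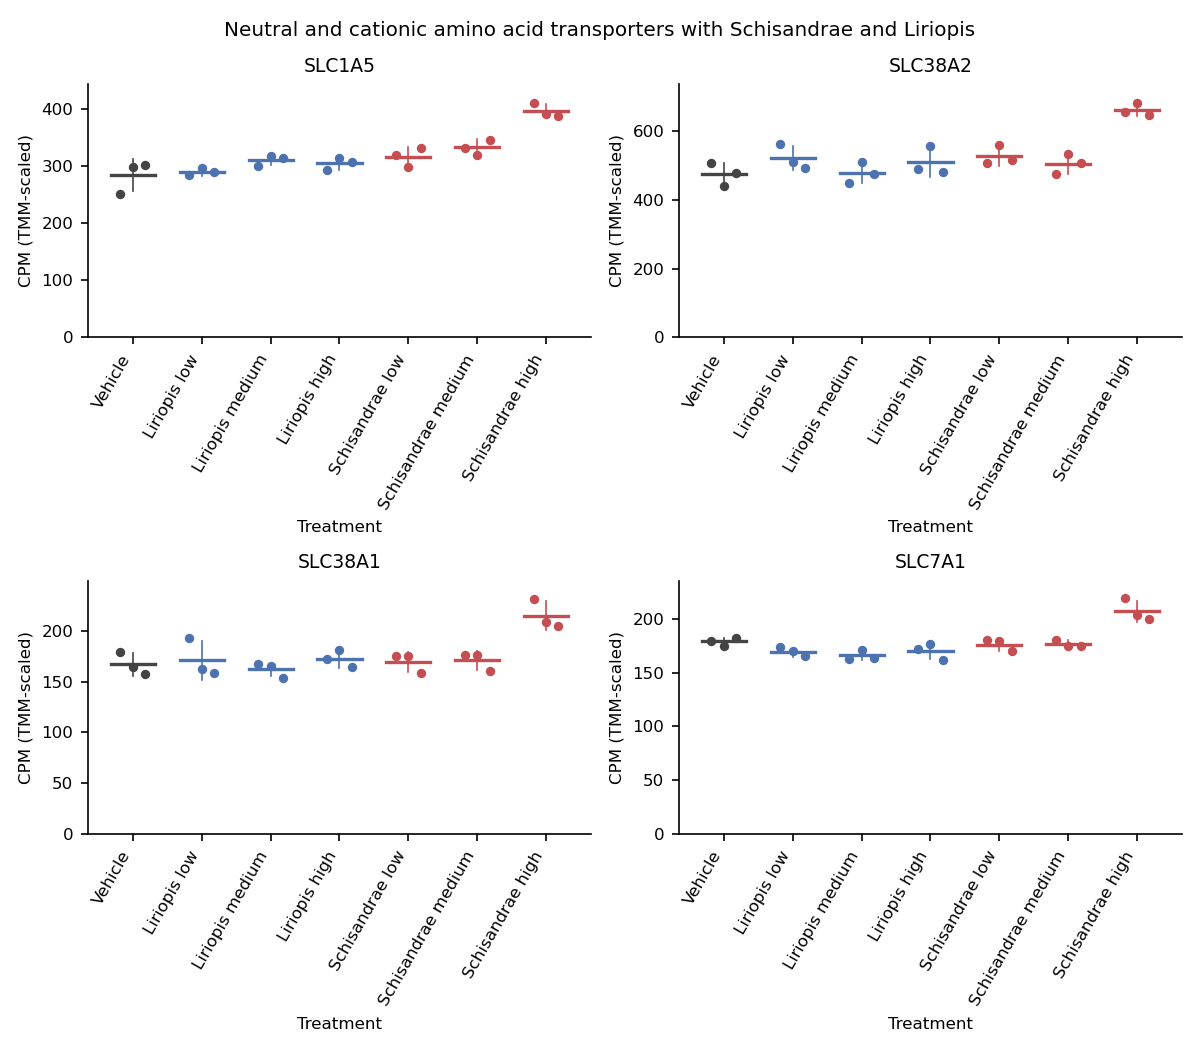
TMM-scaled CPM of SLC1A5, SLC38A2, SLC38A1 and SLC7A1 in each library of the vehicle and of Liriopis and Schisandrae at the low, medium and high doses; points are libraries, horizontal lines the mean of 3 and vertical lines 1 SD. In each panel the 3 libraries of high-dose Schisandrae lie above all others.

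SLC7A5 (ENSG00000103257, chromosome 16, 87830023 to 87869488, minus strand) and its heavy chain SLC3A2 (ENSG00000168003, chromosome 11, 62856102 to 62888875, plus strand) rose with Polygalae at all 3 doses. Vehicle libraries of SLC7A5 were at 909, 995 and 995 CPM. Polygalae gave 1150, 1160 and 1180 CPM at the high, 1130, 1300 and 1260 CPM at the medium and 1190, 1070 and 1170 CPM at the low dose, all above the vehicle. The log2 fold changes were 0.27, 0.35 and 0.24 (each ± 0.07, edgeR adjusted p = 0.0054, 0.00084 and 0.017). High and low dose did not differ by the test (0.03, 95% interval -0.11 to 0.17), so no order by dose was seen. The low-dose call ended without vehicle replicate 1 (0.19, adjusted p = 0.14) or low-dose replicates 1 or 3 (0.21 and 0.22, 0.076 and 0.056), with the GC slope covariate (0.17, 0.094) or without the 4 libraries of lowest GC slope (0.19, 0.14). The high-dose call ended without those 4 libraries (0.22, edgeR adjusted p = 0.059), and the medium-dose call when its 6 libraries were fitted alone (0.35, 0.07) or with a replicate block (0.35, 0.072).

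For SLC3A2 the vehicle libraries were at 155, 176 and 186 CPM, and those of Polygalae at 215, 218 and 226 CPM (high), 205, 190 and 223 CPM (medium) and 214, 235 and 214 CPM (low), again with no overlap. Its log2 fold changes were 0.35, 0.26 and 0.36 (each ± 0.08, edgeR adjusted p = 0.00051, 0.019 and 0.00067). The high- and low-dose calls passed in all 15 settings, and the medium-dose call ended without vehicle replicate 1 (0.2, adjusted p = 0.13) or medium-dose replicate 3 (0.2, 0.14), without the 4 libraries of lowest GC slope (0.19, 0.12) and with the 6 libraries alone, blocked by replicate or not (0.26 and 0.14 in both). SLC3A2 also rose with high-dose Aucklandiae, to 212, 217 and 211 CPM (0.31 ± 0.08, edgeR adjusted p = 0.0015, in all settings). That group was higher than its own low dose (180 ± 14.3 CPM) by 0.24 ± 0.08 (0.02), but not without low-dose replicate 1 (0.18, 0.17) or high-dose replicate 2 (0.23, 0.07), or with a replicate block in the 6 libraries (0.25, 0.059). With wortmannin SLC3A2 had its lowest mean, 155 ± 7.95 CPM (-0.15, edgeR adjusted p = 0.12), and without vehicle replicate 1 it was lower by the test (-0.24, 0.023).

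Polygalae and Aucklandiae share a code set, so their difference does not rest on the vehicle. At the high doses SLC7A5 was at 1160 ± 15.2 against 1040 ± 23.7 CPM, a log2 difference of 0.16 (95% interval 0.02 to 0.3, edgeR adjusted p = 0.14), and SLC3A2 differed by 0.04 (-0.11 to 0.19, 0.79). Neither passed, although the SLC7A5 libraries did not overlap. In comparisons added after the values were seen, SLC7A5 was higher with Polygalae at the medium dose by 0.35 ± 0.07 (edgeR adjusted p = 0.0011) and at the low dose by 0.3 ± 0.07 (0.016), where 5.85% and 1.65% of all genes were called. SLC3A2 differed by 0.16 at the medium (edgeR adjusted p = 0.2) and by 0.29 ± 0.08 at the low dose (0.025), and SLC1A4 was lower at the low dose (-0.21 ± 0.05, 0.021).

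The low-dose calls between these extracts were lost in 5 to 7 of the 15 settings. With the 6 libraries alone the edgeR adjusted p was 0.42 for SLC7A5 (0.29), 0.31 for SLC3A2 (0.29) and 0.53 for SLC1A4 (-0.21), and with a replicate block in them 0.4, 0.24 and 0.53. SLC1A4 was also lost with no filter on low counts (-0.22, edgeR adjusted p = 0.052). For SLC7A5 the call was lost without Polygalae replicates 1 or 3 (0.26 and 0.28, edgeR adjusted p = 0.1 and 0.074) or Aucklandiae replicate 1 (0.22, 0.26). For SLC3A2 it was lost without Aucklandiae replicates 1 or 2 (0.23 and 0.3, edgeR adjusted p = 0.27 and 0.064) or Polygalae replicate 2 (0.25, 0.22). For SLC1A4 it was lost without Polygalae replicates 1 or 2 (-0.21 and -0.18, edgeR adjusted p = 0.078 and 0.21) or Aucklandiae replicates 2 or 3 (-0.19 and -0.18, 0.13 and 0.17). The medium-dose call of SLC7A5 held without any single library, but not with the 6 libraries fitted alone (0.35, edgeR adjusted p = 0.29). Doses of Polygalae were 450, 90 and 18 µg/mL beside 500, 100 and 20 µg/mL of Aucklandiae.

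**Figure D4:**
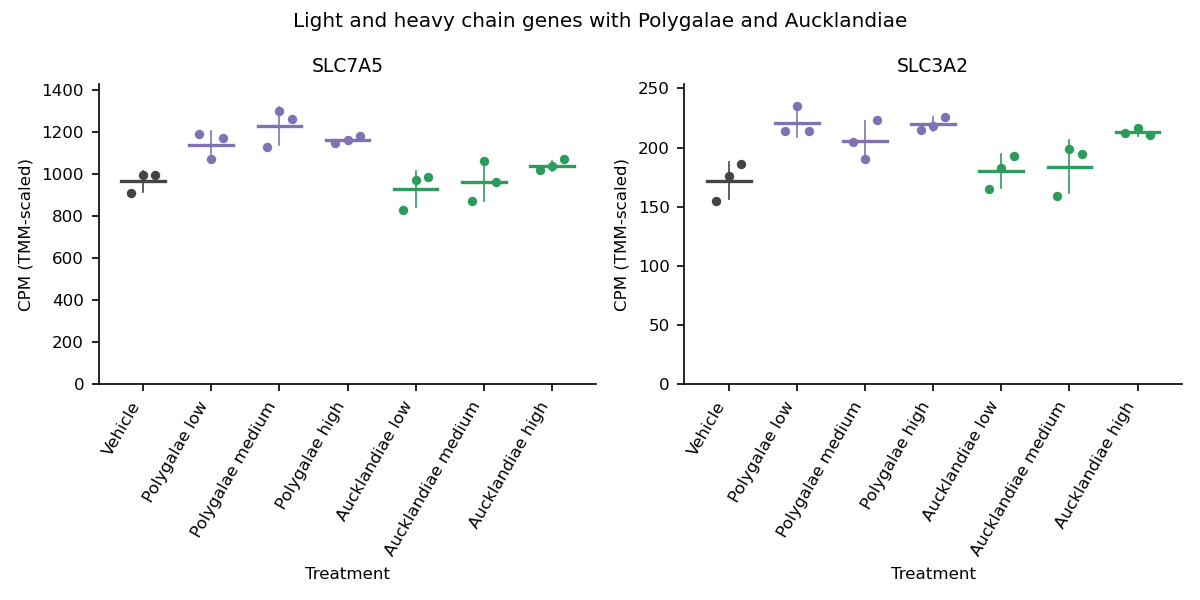
TMM-scaled CPM of SLC7A5 (left) and SLC3A2 (right) in each library of the vehicle and of Polygalae and Aucklandiae at the low, medium and high doses; points are libraries, horizontal lines the mean of 3 and vertical lines 1 SD. All 9 Polygalae libraries lie above the 3 vehicle libraries for both genes, and high-dose Aucklandiae reaches 211 to 217 CPM for SLC3A2.

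SLC43A1 (ENSG00000149150, chromosome 11, 57484534 to 57515786, minus strand), the sodium-independent carrier of branched-chain amino acids, rose in 3 groups that did not overlap with one another or with any other group. Vehicle libraries were at 73, 81.9 and 81.7 CPM, wortmannin libraries at 105, 110 and 108 CPM, those of high-dose Polygalae at 97.3, 96.2 and 102 CPM and those of high-dose Aucklandiae at 90.2, 93.7 and 91.8 CPM. The log2 fold changes were 0.45, 0.32 and 0.22 (each ± 0.05, edgeR adjusted p = 1.6e-10, 1.4e-06 and 3e-04), and the 3 calls passed in all 15 settings. The other 16 treated groups had means of 79.2 to 84.5 CPM, and the vehicle had the lowest mean of all groups, 78.9 ± 5.07 CPM.

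Within its code set, SLC43A1 at high-dose Polygalae exceeded the low dose by 0.22 ± 0.05 (edgeR adjusted p = 0.0015), the only 1 of the 8 genes to do so, where 3.93% of all genes were called. With a replicate block over those 6 libraries the value was 0.22 (adjusted p = 0.071). In Aucklandiae the high dose differed from the low dose by 0.12 ± 0.05 (edgeR adjusted p = 0.074), which passed without low-dose replicate 3 (0.16, 0.036). There 2 of the 8 genes, SLC1A5 and SLC3A2, were called, beside 14.9% of all genes. Medium-dose Polygalae did not pass for SLC43A1 but did without its replicate 1 (0.15, edgeR adjusted p = 0.036). Against high-dose Aucklandiae, where 16.6% of all genes were called, high-dose Polygalae stood higher by 0.1 (95% interval 0.01 to 0.19, edgeR adjusted p = 0.16).

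At the lower doses, 9 of 96 tests against the vehicle passed, 7 higher and 2 lower, and all lay in Schisandrae, Polygalae or Aucklandiae. Polygalae had 2 of 8 at the medium dose (11.7% of all genes called) and 4 of 8 at the low dose (15.6%), and Aucklandiae 1 of 8 at each (5.52% and 4.45%). Of these 9 calls only that of SLC3A2 with low-dose Polygalae passed in all 15 settings.

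With Liriopis, Longan and Zizyphi, 0 of the 8 transporters passed at any dose against the vehicle, or between high and low dose. At the high doses 0.0484%, 1.76% and 4.42% of all genes were called, 0, 0 and 1 of the 8 genes had an unadjusted p under 0.05, and DESeq2 called 0. Their log2 fold changes lay between -0.07 and 0.1 with Liriopis, -0.12 and 0.11 with Longan and -0.18 and 0.12 with Zizyphi, and the 95% intervals within -0.31 to 0.25. At the medium doses 0.0303%, 0.0666% and 0.702% and at the low doses 0.0303%, 0.581% and 2.09% of all genes were called. DESeq2 called SLC7A1 lower with medium-dose Zizyphi (135 to 166 CPM, log2 fold change -0.22, adjusted p = 0.042), where edgeR gave an adjusted p = 0.092. Between the high and low doses of Liriopis, Longan and Zizyphi 0%, 0.00605% and 0.351% of all genes were called, and 0 of the 8 by DESeq2 or at an unadjusted p under 0.05. Between Zizyphi and Longan at their high doses 0 of the 8 genes passed (0.0424% of all genes called, 0 at an unadjusted p under 0.05, 0 by DESeq2), with intervals within -0.19 to 0.21. Added later, the comparisons of these extracts at the medium and low doses (0.00605% and 0% of all genes called), and of Schisandrae with Liriopis at the same doses (0.279% and 0%), had 0 of 8 calls each, 0 by DESeq2, and 0, 0, 0 and 1 at an unadjusted p under 0.05.

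Over the 20 group means of log2 CPM, SLC7A5 and SLC3A2, whose proteins form the heterodimer, had a Pearson correlation of 0.854 (Spearman 0.792). SLC7A2 went with SLC38A1 at 0.857 (Spearman 0.836) and SLC1A5 with SLC38A1 at 0.82 (Spearman 0.564). Groups share code sets and libraries of unlike depth and GC slope, so these values are descriptions only. Leaving out the 2 groups farthest from the median changed them to 0.857, 0.694 and 0.668.

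Among 11019 genes with at least 5 CPM in a group, the 5 whose pattern over the 20 groups was most like that of SLC6A14 were BIRC5 (r = 0.896), MRGBP (0.895), WBP4 (0.891), ECT2 (0.889) and CBX1 (0.888). BIRC5 codes for survivin and ECT2 for an exchange factor of cytokinesis. BIRC5 was at 145 CPM in the vehicle, 89.6 CPM with wortmannin and 104 CPM with high-dose Aucklandiae. Without wortmannin, high-dose Aucklandiae and high-dose Schisandrae these correlations were 0.0499, 0.467, 0.319, -0.237 and 0.137, so the likeness rested on those groups. For SLC7A2 the 5 were MCL1 (0.934), MGAT4A (0.926), USP31 (0.918), ERO1A (0.904) and LCN15 (0.895), and without the same 3 groups they were 0.869, 0.867, 0.829, 0.744 and 0.774. MCL1, an inhibitor of apoptosis, was at 125 CPM in the vehicle and 174 CPM with high-dose Schisandrae. LCN15 was at 0.879 CPM in the vehicle, 1.17 CPM with wortmannin, 2.1 CPM with high-dose Aucklandiae and 5.37 CPM with high-dose Schisandrae. Of these groups only high-dose Schisandrae, where SLC7A2 was also highest, brought LCN15 past 5 CPM, so its likeness carries little weight.

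The lists of related genes that follow are read against the shares of all genes called higher and lower: 16.4% and 16.2% with wortmannin, 8.4% and 7.25% with high-dose Schisandrae, 10.2% and 9.94% with high-dose Polygalae and 13.6% and 12.5% with high-dose Aucklandiae. With high-dose Zizyphi and Longan 2.55% and 0.92% were higher and 1.86% and 0.842% lower. Other amino acid transporters, 21 tested of a list of 41, changed in both directions. With high-dose Schisandrae 5 rose and 4 fell, and SLC7A11, the cystine and glutamate exchanger that also pairs with SLC3A2, went from 41 ± 1.87 to 88.1 ± 5.01 CPM (log2 fold change 1.1 ± 0.09, edgeR adjusted p = 2.9e-14). SLC7A11 rose by 0.84 ± 0.09 with Aucklandiae, where 7 rose and 1 fell, and by 0.72 ± 0.09 with Polygalae, where 4 rose and 5 fell (edgeR adjusted p = 8.4e-11 and 1.2e-08). With wortmannin 8 rose and 4 fell, among them SLC1A2, a glutamate importer, from 21.6 ± 1.95 to 51.9 ± 3.53 CPM (1.26 ± 0.1, edgeR adjusted p = 6.8e-14). SLC6A12, a betaine carrier, was the largest fall with wortmannin, Schisandrae and Polygalae (-0.77, -0.53 and -0.44), and SLC38A3 with Aucklandiae (-0.2). The median of the 21 was 0.14 with wortmannin, 0.06 with Schisandrae, 0.01 with Polygalae and 0.2 with Aucklandiae. SLC7A11 rose also with high-dose Longan (0.32 ± 0.09, edgeR adjusted p = 0.039), as 1 of 21.

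Of 20 aminoacyl-tRNA synthetases, which load amino acids onto tRNA, 14 fell and 1 (QARS1) rose with wortmannin (median log2 fold change -0.22), FARSB most (-0.52 ± 0.08, edgeR adjusted p = 2.1e-06). With Polygalae 9 fell and 0 rose, EPRS1 from 179 ± 5.18 to 130 ± 3.13 CPM (-0.46 ± 0.05, edgeR adjusted p = 1.9e-09). With Schisandrae 4 rose and 0 fell, MARS1 by 0.29 ± 0.04, and with Aucklandiae 4 rose and 2 fell, VARS1 by 0.19 ± 0.07 and SARS1 at -0.18 ± 0.06. The 14 and 9 falls stood beside 16.2% and 9.94% of all genes lower, and the 6 calls of 20 with Aucklandiae beside 26.1% called, near that background.

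Among 24 tested genes of the ATF4 amino acid response, 9 rose and 0 fell with Schisandrae (median 0.11), and ATF3, a transcription factor of that response, had the largest rise, from 3.1 ± 0.283 to 5.47 ± 0.477 CPM (0.81 ± 0.13, edgeR adjusted p = 4.3e-06). ASNS, asparagine synthetase and a member of this list and of the glutamine list, rose there by 0.5 ± 0.07 (7.4e-08). With Polygalae 8 rose and 5 fell, NUPR1, a stress-induced chromatin factor, from 13.1 ± 0.131 to 25.4 ± 1.49 CPM (0.95 ± 0.16) and ALDH18A1, of proline synthesis, at -0.29 ± 0.04. With Aucklandiae 7 rose and 5 fell, DDIT4, an inhibitor of mTORC1 signalling, by 0.68 ± 0.15 and JDP2 at -0.39 ± 0.1. With wortmannin 4 rose and 3 fell, CBS by 0.36 ± 0.07 and ATF5 at -0.41 ± 0.08. Zizyphi had 1 rise (ALDH18A1, 0.2 ± 0.04) and 2 falls, of which JDP2 was the largest (-0.51 ± 0.11), and Longan 1 rise (ALDH18A1, 0.15 ± 0.04). The 9 rises of 24 with Schisandrae stood beside 8.4% of all genes higher, whereas the 7 calls with wortmannin lay near the 32.6% of all genes called.

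Enzymes that use the carried amino acids changed in both directions. Of 19 tested genes of arginine and ornithine metabolism, 9 rose and 1 fell with Aucklandiae, among them ARG2, the mitochondrial arginase, by 0.48 ± 0.07 and CPS1, of the urea cycle, at -0.34 ± 0.07. With wortmannin 4 rose and 4 fell, and ODC1, which makes putrescine from ornithine, went from 288 ± 8.57 to 176 ± 12.8 CPM (-0.71 ± 0.05, edgeR adjusted p = 1.6e-16), while ASL rose by 0.44 ± 0.08. With Schisandrae 3 rose and 3 fell, SAT1, of polyamine breakdown, from 70.9 ± 2.94 to 120 ± 14.7 CPM (0.76 ± 0.08, edgeR adjusted p = 5.6e-10) and ASS1 at -0.35 ± 0.06. With Polygalae 5 rose and 3 fell (NOS3 by 0.58 ± 0.07, SRM at -0.33 ± 0.1), and with Zizyphi 2 rose (ARG2 by 0.31 ± 0.07). The 9 rises with Aucklandiae stood beside 13.6% of all genes higher, and the 8 calls of 19 with wortmannin beside 32.6% of all genes called, not far from that background.

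Of 18 tested enzymes of glutamine and neutral amino acids, 8 rose and 2 fell with wortmannin, with BCAT2, a branched-chain transaminase, at 0.57 ± 0.12. With Polygalae 2 rose and 2 fell, GLDC at -0.36 ± 0.04. With Schisandrae 5 rose and 4 fell. With Aucklandiae 6 rose and 3 fell, TAT, tyrosine aminotransferase, by 0.88 ± 0.13 and GLUD1 at -0.35 ± 0.04. With Zizyphi 1 rose (GPT2, 0.17 ± 0.05) and 1 fell (ASNS, -0.29 ± 0.07). The 4 calls of 18 with Polygalae lay near its background of 20.1%, and the 10 with wortmannin stood beside 32.6%. High-dose Liriopis had 0 calls in each of the 5 lists.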

How the data were processed

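The authors deposited 1 table of expected counts per gene, which are read estimates and can be fractional, for 60 libraries. Per the labels' protocols a directional mRNA kit and 100 bp paired-end reads were used. The builds hg38 and GRCh38 and the tools RSEM 1.3.3, STAR 2.7.3a, Trim Galore 0.6.5 and FastQC 0.11.9 are listed in the submitters' processing notes. The sources used here give neither the annotation release nor the strand setting of the counting.

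Expected counts were rounded. Genes passing filterByExpr by group (16517, with 0.0532% of counts left out) were scaled with TMM and fitted with 1 quasi-likelihood model in edgeR 4.0.16 (limma 3.58.1, R 4.3.3), with a term per group. Tests were 2-sided, with Benjamini-Hochberg adjustment over all tested genes and a threshold of 0.05. CPM values carry the SD of 3 libraries, log2 fold changes their SE, and intervals are 95% (normal). Total counts were 20.21 to 36.41 M per library.

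The members, lists and tests were chosen with earlier results of these data known. Named genes of the other lists are the largest rise and fall that passed and reached 5 CPM in a group mean, for wortmannin and each high dose; some of these are not reported here. Gene positions come from GENCODE release 29 (GRCh38), promoter sequences from RefSeq (GRCh38.p14). Symbols matched for 57055 of 60675 genes.

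Alternatives were RLE scaling, no filter (35717 genes), a stricter filter (13152 genes), DESeq2 1.42.0, the 6 libraries of a comparison alone, the replicate number as a block, and leaving out each library. After the data were seen, a GC slope covariate, the removal of the 4 libraries with the lowest GC slope, and the pairs of extracts at the medium and low doses were added. The labels number the replicates but do not say what a number stands for. Between libraries with one number, deviations from the group mean (genes of 10 CPM or more) correlated above 0.1 for all 3 pairs in 4 of 34 comparisons: low-dose Liriopis against the vehicle (0.56, 0.34 and 0.25), Schisandrae at the high against the low dose (0.44, 0.17 and 0.38), Zizyphi at the same doses (0.38, 0.58 and 0.21) and medium-dose Schisandrae against Liriopis (0.18, 0.55 and 0.34). The replicate block changed no call of a member in those comparisons.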

Additional observations from a re-analysis of the deposited data

How the results depend on the processing

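The 15 calls at the high doses and with wortmannin, and the 5 calls between paired extracts, ran from 13 to 16 and from 4 to 5 when 1 library was left out. With the GC slope covariate they became 21 (17 higher, 4 lower) and 6, with the 6 libraries alone, blocked or not, 17 (14 higher, 3 lower) and 6, and without the 4 libraries of lowest GC slope 14 (11 higher, 3 lower) and 5, beside 14 higher and 1 lower of the 15. The other alternatives gave 15 and 5. The 9 calls at the medium and low doses became 4 without the 4 libraries of lowest GC slope, 2 with the 6 libraries of a comparison alone and 5 with the replicate block in those 6 libraries, and ran from 3 (without vehicle replicate 1) to 10 when 1 library was left out. The 7 calls between high and low doses became 4 with the replicate block in the 6 libraries alone, and ran from 5 to 8 when 1 library was left out. A replicate block over all 60 libraries left all 4 counts as they were (15, 9, 7 and 5). No call of a single gene changed direction in any setting run. By gene and comparison, DESeq2 gave the same verdict in 270 cases and 2 further calls. The cause of these shifts was not tested.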
